A study of Homo sapiens with 6 samples.

Results

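ATP-binding cassette (ABC) transporters were described in cells labelled A549, a human lung cancer line, after exposure to B35. The members were the protein-coding genes whose GENCODE 29 symbol is ABCA, ABCB, ABCC, ABCD or ABCG followed by a number. Genes of subfamilies A, B, C, D and G with other symbols, such as TAP1, TAP2 and CFTR, were not among them. The cholesterol exporters ABCA1 and ABCG1 were left out. This gave 39 of the 58735 genes counted, with 11 in subfamily A, 9 in B, 11 in C, 4 in D and 4 in G. The study compared 3 libraries of cells treated with B35, named by the series as an inhibitor of the histone demethylase LSD1, at 2 µM for 72 h with 3 libraries of untreated cells of the same age in culture. Both groups were labelled WT and grew in DMEM with serum. No solvent is named for the untreated cells, and nothing says that libraries of 1 group were grown separately, so the spread behind each p-value may be technical.

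ABC transporters use ATP, bound and split by a pair of cytoplasmic domains, to move substrates across membranes. Subfamily A moves lipids. Subfamily B holds P-glycoprotein, bile exporters and several mitochondrial and lysosomal members. Subfamily C holds the multidrug resistance-associated proteins, which export organic anions and conjugates of glutathione or glucuronic acid, and the regulatory subunits of potassium channels. Subfamily D serves peroxisomes and lysosomes, and subfamily G exports drugs and sterols. In lung, ABCA3 loads surfactant lipid into lamellar bodies, and in lung tumour cells members of subfamilies B, C and G are known for drug efflux.

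The library totals ran from 17209863 to 18530670 counts with B35 and from 17141478 to 18398450 counts in control. B35 replicate 1 stood apart from the other B35 libraries on the second principal component. Genes rich in G and C were also unevenly represented between libraries. The median deviation of the fifth of genes with the highest GC content, minus that of the fifth with the lowest, was −0.31, 0.17 and 0.29 on the log2 scale in B35 replicates 1 to 3 and −0.21, 0.13 and −0.063 in control replicates 1 to 3. Some values did not match what is known of the labelled line. CDKN2A and MTAP, neighbours on chromosome 9 known to be deleted in A549, had 2041 to 3370 and 414 to 466 counts per library. ALDH1A1, known as abundant in A549, had 1 to 14 counts. These 3 genes were chosen after their values were seen, and the identity of the line was not tested further. The list of A549 epithelial markers also held the enzyme genes AKR1B10, AKR1C1, ALDH3A1 and NQO1. KRT8 averaged 1117 CPM (counts scaled to library size) with B35 and 1663 CPM in control, and KRT18 456 and 526 CPM. CDH1 averaged 0.650 CPM with B35 and 1.34 CPM in control, and KRT19 0.220 and 0.243 CPM. AKR1B10 averaged 0.619 CPM with B35 and 1.10 CPM in control, ALDH3A1 11.5 and 8.39 CPM, and NQO1 244 and 292 CPM. The summed leukocyte markers lay between 1.21 and 1.41 CPM with B35 and between 1.25 and 1.49 CPM in control, with 3 of 5 at 0 in every library. The summed A549 epithelial markers lay between 1700 and 2090 CPM with B35 and between 2500 and 2590 CPM in control. The summed fibroblast markers lay between 19.8 and 22.8 CPM with B35 and between 27.1 and 27.3 CPM in control. Of the 9 tested A549 epithelial markers 3 rose and 1 fell (edgeR adjusted p under 0.05, reached by 15.4% of all tested genes). EPCAM, CLDN4 and the enzyme gene AKR1C1 rose, at 7.21, 39.9 and 31.9 CPM with B35 and 3.36, 22.3 and 13.4 CPM in control. KRT8, the largest part of the A549 epithelial sum, fell. Neither of the 2 tested fibroblast markers passed. The summed endothelial markers lay between 7.38 and 9.44 CPM with B35 and between 5.85 and 9.22 CPM in control. The part of these shifts in the results on ABC genes was not tested. KDM1A, which encodes LSD1, was measured at 184 ± 8.97 CPM with B35 and 198 ± 2.56 CPM in control (SD, n = 3 each), and it did not pass the test (edgeR adjusted p = 0.432).

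Of the 39 members, 24 had enough counts to be tested, and 9 of them changed with B35. Those that rose were ABCC3, ABCA4, ABCD4, ABCA12, ABCA5 and ABCG2, and those that fell were ABCA13, ABCD3 and ABCB10. A change means an adjusted p under 0.05 in edgeR's two-sided quasi-likelihood test over all 14773 genes tested, and by this rule 15.4% of all genes changed, 8.82% higher and 6.59% lower. Among the tested members 37.5% changed. The tested members moved in both directions, with a median log2 fold change of 0.017, and 0.0067 over all genes tested. The median size of the log2 fold change was 0.33 among members and 0.22 among all genes tested. The smallest count of a tested member in a library was 8, in ABCC6, which had 17, 27 and 21 counts with B35, against 8, 16 and 22 in control. It had over 10 counts, the minimum of the filter, in all B35 libraries but not in all control libraries. The groups did not overlap in CPM for 14 of the 24 tested members, 7 higher and 7 lower with B35, where 36.3% of all tested genes did not overlap, 18.8% higher and 17.5% lower. An unadjusted p under 0.05 was reached by 12 of the 24, and by 30.7% of all tested genes. RNA from whole cultures cannot tell fewer cells that express a gene from less of its RNA per cell.

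**Figure D1:**
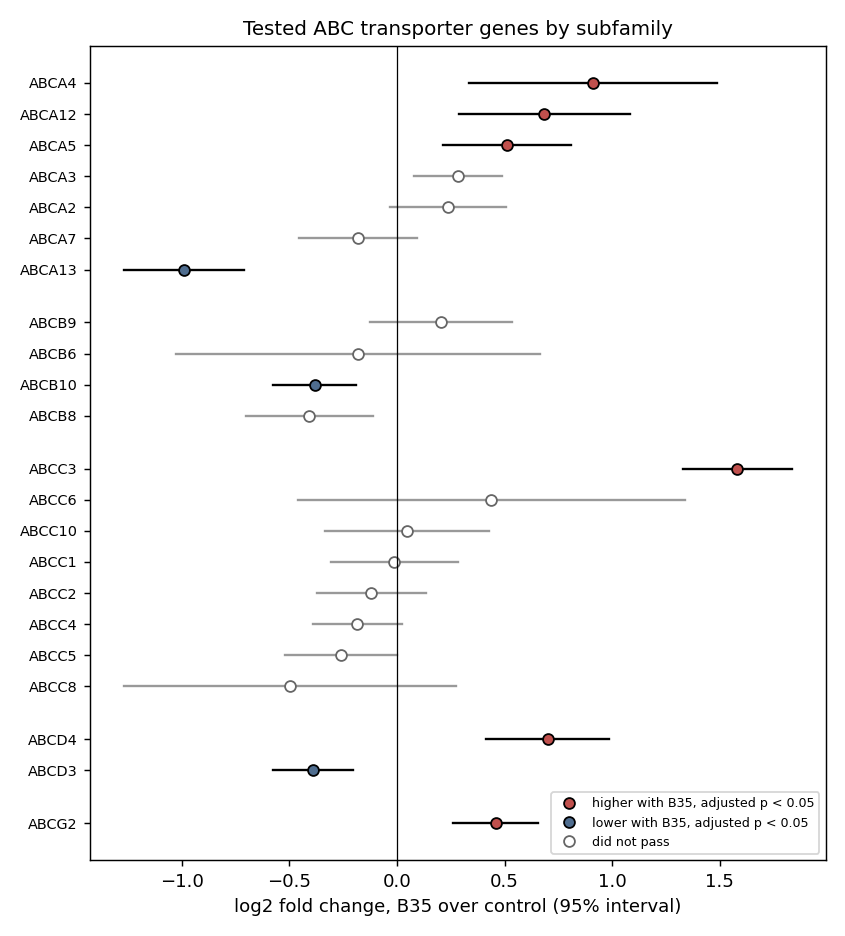
Log2 fold change of the tested ABC genes reported here, B35 over control, with its 95% interval from the edgeR fit, grouped by subfamily A, B, C, D and G from top to bottom. Filled points passed the test. ABCC3 lies at 1.58 and ABCA13 at −0.99, and the other points lie between −0.50 and 0.91.

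The subfamilies differed in how many members were detected. No count was recorded in any library for 6 members, namely ABCA6, ABCA8 and ABCA9 of the gene cluster on chromosome 17, ABCB5, ABCC9 and ABCC12. A count of 0 over the summed B35 or the summed control libraries allows a level of up to 0.0558 or 0.0557 CPM for each, by counting error only. The other 9 untested members had at most 6 counts in any library. They included ABCB1, which encodes P-glycoprotein, with 1, 0 and 2 counts in the B35 libraries and 0, 6 and 3 counts in the control libraries. Its ratio of B35 to control counts was 0.334 (95% exact interval 0.0582 to 1.34), so no difference was detectable at this depth. ABCA10, a neighbour of ABCA5 that shares annotated exons with it, had 8 counts over the B35 libraries and 1 over the control libraries, a ratio of 8.02 with an interval of 1.07 to 356. Its groups did not overlap in CPM, at 0.111 to 0.170 with B35 and 0 to 0.0558 in control. These values rest on 3, 2 and 3 counts in the B35 libraries and 1, 0 and 0 in the control libraries. Whether reads of ABCA5 were counted for ABCA10 was not tested. ABCC11 had 6 counts with B35 and 3 in control, and ABCG8, a subunit of the sterol exporter of liver and gut, had 7 with B35 and 2 in control. Its partner ABCG5 had 1 count with B35 and none in control. The bile salt exporter ABCB11 and ABCG4 had 3 counts each with B35 and none in control. The phosphatidylcholine flippase gene ABCB4 had 3 counts with B35 and 1 in control, and the peroxisomal ABCD2 had none with B35 and 2 in control.

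Levels were compared between members within a group as TPM, the usual length-scaled transcript abundance, which also divide by exon length. With B35 the highest members were ABCA2 at 65.8 ± 10.5 TPM, ABCC1 at 63.8 ± 8.57 TPM and ABCG2 at 63.3 ± 0.300 TPM (SD, n = 3), which did not differ beyond their spread. In control cells the highest were ABCC1 at 60.6 ± 10.9 TPM, ABCB10 at 57.0 ± 1.6 TPM, ABCD3 at 56.8 ± 1.95 TPM and ABCA2 at 52.6 ± 6.65 TPM, which also did not differ beyond their spread. The median over all tested genes was 17.3 TPM with B35 and 16.2 TPM in control. ABCG2 ranked 3 of 39 with B35 and 6 in control, and ABCC3 ranked 11 with B35 and 15 in control. ABCB10 ranked 5 with B35 and 2 in control.

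**Figure D2:**
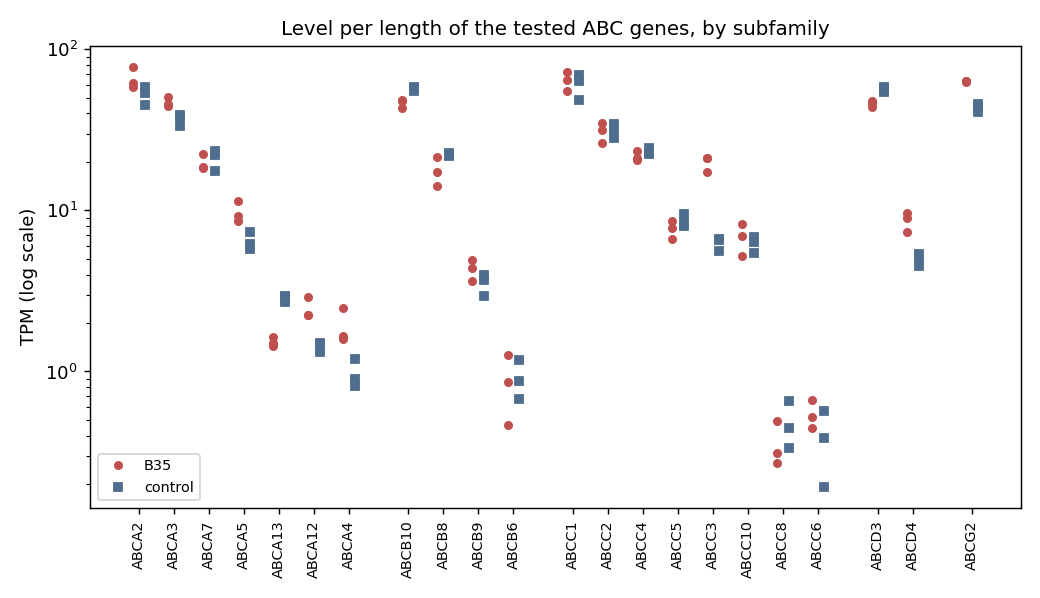
TPM on a log scale of the tested ABC genes reported here, in each library, with B35 libraries as circles to the left of control libraries as squares, grouped by subfamily A, B, C, D and G. ABCC1, ABCA2, ABCG2, ABCB10 and ABCD3 lie near the top, and ABCC6 and ABCC8 lie under 1 TPM.

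Subfamily A, the lipid transporters, had 4 changed members of 7 tested, 3 higher and 1 lower with B35. ABCA13, a very large member (chromosome 7, 48171458 to 48647496, plus strand, hg38), had 8.82, 8.49 and 7.75 CPM in B35 replicates 1 to 3, against 15.8, 16.8 and 17.1 CPM in control replicates 1 to 3. All B35 libraries lay well below all control libraries. It was 1.99-fold lower (log2 −0.99 ± 0.13 SE, edgeR adjusted p = 0.000952), and it passed in every alternative fit, with an adjusted p of at most 0.00902 when 1 library was left out.

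ABCA4, the retinoid transporter of photoreceptors, was scarce at 3.84, 6.33 and 4.01 CPM with B35, against 2.12, 2.33 and 3.09 CPM in control. The groups did not overlap, and B35 replicate 2 was the highest. It was 1.88-fold higher (log2 0.91 ± 0.26, edgeR adjusted p = 0.0388). The call was lost without B35 replicate 2 (log2 0.64, edgeR adjusted p = 0.140) and without control replicate 1, 2 or 3 (0.139, 0.109 and 0.0614).

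ABCA12, which loads lipid into the lamellar granules of keratinocytes, had 7.69, 6.27 and 5.90 CPM with B35, against 4.35, 3.77 and 4.22 CPM in control. Each B35 library was above each control library. It was 1.61-fold higher (log2 0.69 ± 0.18, edgeR adjusted p = 0.0283), and the call held without B35 replicate 3 alone among the 6 fits that leave out a library. The edgeR adjusted p was 0.0532 and 0.0555 without B35 replicates 1 and 2, and 0.0747, 0.0988 and 0.0947 without control replicates 1, 2 and 3. The antisense gene AC072062.1, which shares exons with ABCA12, had 1 count in all.

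ABCA5, a lipid transporter of lysosomes and late endosomes, had 42.8, 33.7 and 34.2 CPM with B35, against 29.7, 23.1 and 24.8 CPM in control. B35 replicate 1 and control replicate 1 were the highest of their groups, and the groups did not overlap. It was 1.43-fold higher (log2 0.51 ± 0.13, edgeR adjusted p = 0.0282), and leaving out control replicate 2 or 3 ended the call (edgeR adjusted p = 0.107 and 0.122).

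The 3 abundant members of subfamily A did not pass. ABCA3, the surfactant lipid transporter, had 101.5, 104.0 and 110.1 CPM with B35, against 79.9, 92.4 and 86.8 CPM in control. Every B35 library exceeded every control library, yet the log2 fold change of 0.28 had an edgeR adjusted p of 0.0627 (95% interval 0.078 to 0.49). It passed with upper quartile scaling (edgeR adjusted p = 0.0459) and without B35 replicate 1 (0.0249). ABCA2, a transporter of endolysosomes, averaged 217 ± 29.7 CPM with B35 and 184 ± 22.8 CPM in control, with overlapping groups and an interval of −0.033 to 0.51 for its log2 fold change. ABCA7, a phospholipid transporter known from Alzheimer's disease genetics, averaged 47.2 ± 4.66 CPM with B35 and 53.6 ± 7.53 CPM in control, and its interval was −0.45 to 0.093.

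Subfamily B had 1 changed member of 5 tested. ABCB10, an inner mitochondrial membrane protein needed for haem synthesis (chromosome 1, 229516582 to 229558695, minus strand), had 58.2, 54.7 and 57.2 CPM with B35, against 75.5, 71.5 and 74.7 CPM in control. The libraries of each group lay close together and the groups were well apart. It was 1.303-fold lower (log2 −0.38 ± 0.088, edgeR adjusted p = 0.0157). The call was lost without B35 replicate 2, control replicate 1 or control replicate 3 (edgeR adjusted p = 0.0588, 0.0662 and 0.0916), while the log2 fold change stayed between −0.41 and −0.36 when any 1 library was left out. Its annotated pseudogenes ABCB10P1, ABCB10P3 and ABCB10P4, which could share reads with it, had 4, 3 and 1 counts over the B35 libraries and 7, 5 and 0 over the control libraries.

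ABCB8, another inner mitochondrial membrane protein, linked to iron export, had 37.6, 48.4 and 56.4 CPM with B35, against 61.8, 65.0 and 62.2 CPM in control. B35 replicate 1 was the lowest by far, and the groups did not overlap. It did not pass (log2 −0.41 ± 0.13, edgeR adjusted p = 0.0632), but it passed without a filter on low counts, with the replicate number as a term, without B35 replicate 3, with DESeq2 and with GC and length trends removed. The lysosomal peptide transporter gene ABCB9 averaged 16.5 ± 1.96 CPM with B35 and 14.3 ± 2.16 CPM in control, and the porphyrin transporter gene ABCB6 averaged 1.28 ± 0.572 CPM with B35 and 1.45 ± 0.409 CPM in control. ABCB9 shares exons with ARL6IP4 and OGFOD2 on the other strand, and ABCB6 with AC068946.2.

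Subfamily C had 1 changed member of 8 tested, and it was the gene that moved most among all ABC members tested. ABCC3, an exporter of glucuronides and bile salts on the basolateral side of epithelia (ENSG00000108846, chromosome 17, 50634777 to 50692252, plus strand), had 57.8, 49.4 and 57.2 CPM with B35, against 16.4, 19.4 and 19.1 CPM in control. The lowest B35 library was far above the highest control library. ABCC3 was 2.99-fold higher (95% interval 2.51 to 3.57, log2 1.58 ± 0.12 SE, edgeR adjusted p = 4.28e-05), and it passed in every alternative fit. Its log2 fold change was 1.51 to 1.65 when 1 library was left out.

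The other exporters of subfamily C did not pass. ABCC1, which exports glutathione conjugates, had 139, 124 and 153 CPM with B35, against 112, 160 and 147 CPM in control, so the groups overlapped fully. Its log2 fold change was −0.012 (95% interval −0.31 to 0.28) and took the other sign in 4 alternative fits, with upper quartile scaling among them. ABCC2, the apical counterpart of ABCC3, had 77.1, 60.8 and 69.1 CPM with B35, against 67.6, 82.5 and 74.5 CPM in control, with an interval of −0.37 to 0.14. ABCC4, an exporter of cyclic nucleotides and prostaglandins, had 57.0, 54.3 and 50.1 CPM with B35, against 59.1, 60.4 and 63.6 CPM in control. Its groups did not overlap, but its log2 fold change of −0.18 had an edgeR adjusted p of 0.216. ABCC5, a related exporter of organic anions, had 25.1, 22.8 and 27.7 CPM with B35, against 28.2, 33.2 and 29.1 CPM in control. Its groups did not overlap either (log2 −0.26, edgeR adjusted p = 0.165). ABCC10 averaged 15.9 ± 3.54 CPM with B35 and 15.4 ± 1.72 CPM in control. It shares exons with DLK2 on the other strand, which had 363 counts with B35 and 198 in control (edgeR adjusted p = 0.018). Whether reads of DLK2 were counted for ABCC10 was not tested. The log2 fold change of ABCC10 took the other sign in 4 alternative fits. ABCC6 and ABCC8 were under 2 CPM on average in both groups, and each interval spanned 0. ABCC6 has annotated pseudogenes, ABCC6P1 and ABCC6P2, that could share its reads.

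Within subfamily C the make-up shifted. ABCC3 held 13.4%, 12.9% and 13.0% of the summed TPM of the subfamily in B35 replicates 1 to 3, against 4.70%, 4.404% and 4.61% in control replicates 1 to 3. ABCC1 held the greatest share in every library, averaging 42.0% ± 1.78 with B35 and 43.9% ± 2.75 in control (SD, n = 3 each). ABCC2 averaged 20.2% ± 1.55 with B35 and 22.9% ± 0.870 in control, and ABCC4 14.4% ± 1.58 with B35 and 17.1% ± 1.82 in control. These shares sum to a fixed total, so a larger share of ABCC3 goes with smaller shares of the rest.

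**Figure D3:**
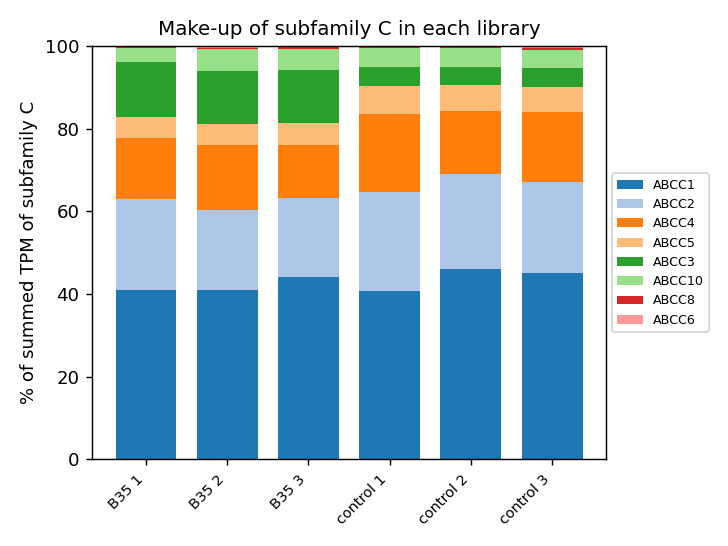
Stacked bars give each member's percent of the summed TPM of subfamily C in each library, B35 libraries to the left of control libraries. ABCC3 holds 13.1% on average with B35 and 4.57% in control, and ABCC1 holds the greatest share in every library.

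Subfamily D had 2 changed members of 3 tested, and they moved in opposite directions. ABCD4, which takes part in the release of cobalamin from lysosomes (chromosome 14, 74285423 to 74303056, minus strand), had 22.3, 19.3 and 23.6 CPM with B35, against 12.1, 14.4 and 13.6 CPM in control. The groups were well apart. It was 1.62-fold higher (log2 0.70 ± 0.13, edgeR adjusted p = 0.00566) and passed in every alternative fit. AC005519.1, an overlapping gene on the same strand, had 5 counts with B35 and 7 in control.

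ABCD3, which carries branched-chain and dicarboxylic fatty acids into peroxisomes (chromosome 1, 94418455 to 94518666, plus strand), had 99.3, 99.1 and 101.9 CPM with B35, against 132.7, 126.3 and 134.6 CPM in control. The B35 libraries were nearly equal and lay below all controls. It was 1.31-fold lower (log2 −0.39 ± 0.084, edgeR adjusted p = 0.0118), but leaving out control replicate 1 or 3 ended the call (edgeR adjusted p = 0.0510 and 0.0848).

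In subfamily G only ABCG2 could be tested. ABCG2, the breast cancer resistance protein, exports drugs and urate (chromosome 4, 88090264 to 88231322, minus strand). It had 90.83, 94.96 and 89.29 CPM with B35, against 67.5, 62.8 and 70.0 CPM in control. All B35 libraries were above all control libraries. It was 1.37-fold higher (log2 0.46 ± 0.090, edgeR adjusted p = 0.00756) and passed in every alternative fit, with an edgeR adjusted p of 0.0029 to 0.0478 when 1 library was left out.

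**Figure D4:**
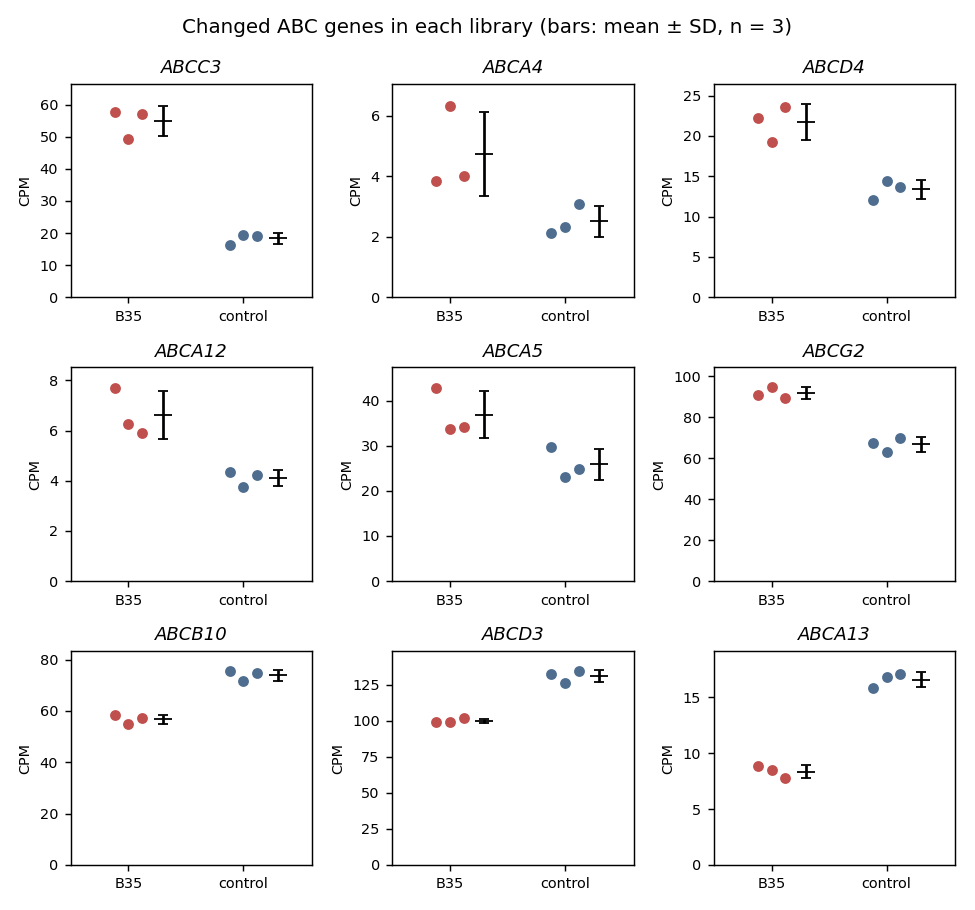
CPM of the 9 changed ABC genes in each library (points), with the mean and SD of 3 libraries beside them, B35 to the left of control, on linear axes that start at 0. The panels run in order of log2 fold change from ABCC3, at 54.8 CPM with B35 and 18.3 CPM in control, to ABCA13, at 8.35 CPM with B35 and 16.6 CPM in control, and the groups overlap in none of them.

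Summed over members, the subfamilies did not move alike. The summed CPM of subfamily B was 169.7, 170.9 and 179.1 with B35, against 203.7, 201.3 and 199.0 in control. That of subfamily D was 166.7, 172.8 and 182.5 with B35, against 204.7, 204.2 and 210.2 in control. Both sums were below control in every B35 library, although the fold changes of ABCD4 and ABCB9 were above 1. Subfamily C summed to 369.7, 330.6 and 378.7 CPM with B35, against 298.7, 375.0 and 352.7 CPM in control, with overlapping groups. Subfamily A summed to 408, 405 and 466 CPM with B35, against 337, 403 and 380 CPM in control. These sums are descriptions and were not tested.

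The counts of changed members depended on the libraries and on the correction for GC content. With B35 replicate 1 left out, 6 members were called higher and 3 lower, where the shares over all genes were 12.1% and 10.1%. With B35 replicate 2 left out, 4 members were higher and 2 lower, where the shares were 6.14% and 4.76%. Leaving out B35 replicate 3 gave 6 higher and 4 lower members, beside 6.36% and 4.21% of all genes. Leaving out control libraries gave fewer calls. Without control replicate 1, 4 rose and 1 fell, where 4.36% of all genes rose and 2.76% fell. Without control replicate 2, 3 rose and 3 fell, where 5.2% of all genes rose and 3.3% fell, and without control replicate 3, 3 rose and 1 fell, against 3.87% and 1.94% of all genes. With the replicate number as a block, 6 rose and 4 fell, where 10.8% of all genes rose and 8.54% fell. With each library's trends on GC content and exon length taken out, which was tried only once the data had been seen, the members that rose numbered 6 and those that fell 7, where 13.7% of all genes rose and 12.8% fell. Among the added falls were ABCB8, ABCA7 and ABCC5 (edgeR adjusted p = 0.00126, 0.0347 and 0.0459), whose transcripts held 61.0%, 64.2% and 49.3% G and C, against a median of 49.5% over all genes tested.

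The upstream sequences of the members that fell are given because their base composition differed widely. They are the 250 bases before the RefSeq start (GRCh38.p14), 5′ to 3′ on the gene's strand, with capitals on each GC box (GGGCGG or its reverse complement CCGCCC). ABCA13 lies at chr7:48171208-48171457 (plus strand), ABCB10 at chr1:229558708-229558957 (minus strand) and ABCD3 at chr1:94418139-94418388 (plus strand).
ABCA13: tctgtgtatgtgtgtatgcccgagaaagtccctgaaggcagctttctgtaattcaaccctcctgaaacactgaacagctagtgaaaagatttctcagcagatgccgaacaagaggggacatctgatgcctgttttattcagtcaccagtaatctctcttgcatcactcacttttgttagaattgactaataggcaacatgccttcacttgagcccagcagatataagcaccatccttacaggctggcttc
ABCB10: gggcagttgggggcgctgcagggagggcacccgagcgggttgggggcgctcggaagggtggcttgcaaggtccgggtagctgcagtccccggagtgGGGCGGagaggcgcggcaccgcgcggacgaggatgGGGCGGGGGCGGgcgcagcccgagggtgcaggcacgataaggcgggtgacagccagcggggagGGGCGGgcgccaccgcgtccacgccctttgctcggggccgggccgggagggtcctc
ABCD3: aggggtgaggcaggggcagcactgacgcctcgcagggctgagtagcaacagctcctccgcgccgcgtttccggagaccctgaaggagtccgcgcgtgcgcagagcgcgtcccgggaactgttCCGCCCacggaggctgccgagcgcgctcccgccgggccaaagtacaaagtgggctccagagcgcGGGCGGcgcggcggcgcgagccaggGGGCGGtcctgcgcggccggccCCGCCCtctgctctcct
The window of ABCA13 held 44.8% G and C and no GC box, while those of ABCB10 and ABCD3 held 77.2% and 74.4% and 4 GC boxes each. A GC box was not limited to members that fell, as ABCA5, ABCD4 and ABCG2, which rose, also had one in a window. Another window of ABCG2 (chr4:88231627-88231876) held 40% G and C and no GC box. A window of ABCA12, which also rose, held 48.8% and no GC box. The 18 tested members with an entry had 28 windows, since a gene can have several starts. A GC box on either strand lay in 16 of these 28 windows (57.1%), from 13 members, and in 42.6% of all 35116 RefSeq windows of this length. RefSeq windows matched 30 of the 39 members and 7 of the 9 changed members, not ABCC3 and ABCA4. The core of the antioxidant response element (TGACNNNGC, either strand) lay in 7 of the 28 windows, or 25%, ABCD4 being the only changed member among them, and in 10.9% of all windows. A match of letters is not a bound site. The 35116 windows were not limited to genes tested here, so the shares come from unlike sets, and no enrichment was tested. Other motifs were searched in the same way. The E-box (CACGTG) lay in 6 of the 28 windows (21.4%) and in 6.345% of all windows. The CCAAT box, searched on either strand by those letters, lay in 5 of the 28 windows (17.9%) and in 32.0% of all windows.

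Genes that work beside these transporters were read from the same fit, in lists chosen with earlier results of these data known. The counts of changed genes stand beside 15.4% of all tested genes, 8.82% higher and 6.59% lower. Of 17 tested genes of mitochondrial haem and iron-sulphur synthesis, the setting of ABCB10, 1 rose and 1 fell, a share of 11.8%, below that of all genes. ISCU, the scaffold on which iron-sulphur clusters form, was 1.302-fold higher (edgeR adjusted p = 0.0293). Of 13 peroxisomal fatty acid genes, 1 rose and 1 fell, the same share as over all genes at 15.4%. CRAT, carnitine acetyltransferase, was 1.42-fold higher (edgeR adjusted p = 0.00703), and its exons overlap those of PTPA on the other strand. HSD17B4, an enzyme of peroxisomal beta-oxidation that acts downstream of ABCD3, averaged 102 ± 5.70 CPM with B35 and 132 ± 2.81 CPM in control (log2 −0.37 ± 0.087, edgeR adjusted p = 0.0181). None of 10 genes of cobalamin handling passed, and the most abundant, MTRR, averaged 124 ± 14.0 CPM with B35 and 153 ± 14.2 CPM in control (edgeR adjusted p = 0.0811).

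Of the surfactant genes, 3 of 11 could be tested, and 1 of them passed. CTSH, a protease that processes surfactant protein, was 1.54-fold higher (edgeR adjusted p = 0.00275), and the other 2 did not pass. SFTPD had no count, SFTPB had 2 counts with B35 and none in control, and SFTPC had 15 counts with B35 and 11 in control. KCNJ11, the channel pore that pairs with the ABCC8 subunit, averaged 3.71 ± 0.449 CPM with B35 and 1.20 ± 0.101 CPM in control (log2 1.63 ± 0.24, edgeR adjusted p = 0.00214), while ABCC8 averaged 1.29 ± 0.404 CPM with B35 and 1.83 ± 0.616 CPM in control and did not pass. KCNJ8 had no count.

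Of 15 tested regulators of ABC transcription, 3 rose and none fell, a share of 20% that is near the 15.4% of all genes. NR1H3, a sterol receptor gene that shares exons with ACP2, was 1.35-fold higher (edgeR adjusted p = 0.00963), the fatty acid receptor gene PPARA 1.51-fold (0.00899) and HNF4A, a liver and gut factor, 1.501-fold (0.0140). NFE2L2, which encodes the antioxidant factor NRF2, averaged 119 ± 22.4 CPM with B35 and 157 ± 20.8 CPM in control and did not pass (edgeR adjusted p = 0.0815). Of solute carriers that move drugs, 2 of 9 tested rose and 1 fell, beside 8.82% and 6.59% of all genes. SLC29A1, a nucleoside carrier, was 1.31-fold higher, SLC22A18 1.29-fold higher and the carnitine carrier SLC22A5 fell by 0.39 on the log2 scale (edgeR adjusted p = 0.0421, 0.0377 and 0.0330). None of 4 tested organic anion uptake carriers passed, and the most abundant, SLCO4A1, averaged 277 ± 32.0 CPM with B35 and 294 ± 32.5 CPM in control.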

How the data were processed

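Per the labels' protocols, TRIzol was used for RNA extraction and the NEBNext Ultra RNA kit for libraries. HISAT2 2.0.5, featureCounts 1.5.0-p3 and hg38 are named in the submitters' processing notes, and they give no strand setting. For each gene the deposited files list a raw count, and beside it FPKM computed by the authors. FPKM values served as a check of levels.

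GENCODE 29 supplied symbols, gene positions and exon lengths. TPM was computed from counts and merged exon length. Counts were tested in R 4.3.3 with edgeR 4.0.16 (quasi-likelihood test, filterByExpr with minimum count 10 and total 15, TMM, Benjamini-Hochberg over 14773 genes). CPM uses TMM-scaled library sizes. A count of 0 has a limit set by 3 counts over the group. That limit and intervals of count ratios cover counting error only. On simulated data with 14572 genes in the fit, the test found 43.9% of true 1.5-fold changes, 76.2% at 2-fold and 95.4% at 4-fold. Of its 149 calls, 10 were false. The simulation gave a change to 200 genes, and had no GC trend and no outlying library. In the data 2276 of the 14773 genes were called, so the simulated rates need not hold for them.

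The members and lists were chosen with earlier results of these data known. Named genes were members that passed, did not overlap between groups, had an unadjusted p under 0.05 or were among the 2 most abundant of a subfamily, KDM1A, and up to 3 per list. Other names were added after their values were seen. Alternatives were other scalings and filters, a replicate term, robust dispersion, length and GC offsets, libraries left out, DESeq2 1.42.0 and limma-voom (limma 3.58.1). Some genes are not reported here, though counts and sums over groups of genes include them.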

Additional observations from a re-analysis of the deposited data

How the results depend on the processing

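Over 16 alternative fits, ABCC3, ABCA13, ABCD4 and ABCG2 passed each time, and the 9 changed members never changed sign, with 16 of 144 values no longer past the threshold. The calls of ABCA4, ABCA5, ABCA12, ABCB10 and ABCD3 were lost only when a library was left out. Leaving out 1 library gave 881 to 3342 changed genes, 587 to 1822 higher and 294 to 1520 lower, and 3 to 6 ABC members higher and 1 to 4 lower. Those fits use fewer samples. The 3342 changed genes were found without B35 replicate 1, where the fit of all libraries gave 2276, and the reason was not tested. With GC and length trends removed, 3921 genes changed, 2028 higher and 1893 lower, and 7 members were lower. The cause was not tested. With the replicate block 2855 genes changed, and 6 members were higher and 4 lower. The labels do not say whether the numbers pair the samples. Deviations of same-numbered libraries correlated at 0.163, 0.0162 and −0.063, and B35 replicate 3 correlated best with control replicate 2. So few libraries cannot decide whether the samples were paired. ABCC1, at a log2 fold change of −0.012, was at 0.0165 with upper quartile scaling and −0.15 to 0.092 with 1 library left out. ABCC10, at 0.047, was at −0.041 with GC and length trends removed and −0.095 to 0.21 with 1 library left out, and ABCB6, at −0.18, was at −0.54 to 0.10. None of these 3 passed in any fit. The ratio of deposited FPKM to TPM was constant within each library (0.275 to 0.304), so shares within a library did not depend on which was used. Depth limits members with fewer than 10 counts, and 15 of 39 members could not be tested.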

Other observations

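Of 6 tested ABC proteins whose symbols lie outside the pattern used here, 1 rose and 3 fell with B35. Of all tested genes 8.82% rose and 6.59% fell. ABCE1, ABCF1 and ABCF2 carry ABC domains but span no membrane, and ABCE1 is known for splitting ribosomes after translation. ABCE1 averaged 92.5 ± 13.5 CPM with B35 and 130 ± 15.1 CPM in control (log2 −0.49 ± 0.12, edgeR adjusted p = 0.0239, n = 3 each), and its exons overlap those of ANAPC10 and OTUD4. ABCF1, linked to translation initiation, averaged 121 ± 2.66 CPM with B35 and 158 ± 10.0 CPM in control (log2 −0.38 ± 0.089, edgeR adjusted p = 0.0156). ABCF2 averaged 20.6 ± 3.93 CPM with B35 and 28.9 ± 2.10 CPM in control (log2 −0.49 ± 0.14, edgeR adjusted p = 0.0435). ABCF3 averaged 38.8 ± 3.47 CPM with B35 and 43.8 ± 2.27 CPM in control and did not pass (edgeR adjusted p = 0.285). TAP1, a subunit of the antigen peptide transporter, was 1.33-fold higher with B35 (edgeR adjusted p = 0.0335), and its exons overlap those of PSMB8-AS1, while its partner TAP2 averaged 43.2 ± 2.28 CPM with B35 and 46.6 ± 5.47 CPM in control (edgeR adjusted p = 0.554). CFTR, the chloride channel of the ABC superfamily, had 6 counts with B35 and 11 in control.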
